A study of Mus musculus with 77 samples.

Results

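Cytochrome P450 enzymes of families 2 and 4 were followed in the livers of mice given phthalates or phenobarbital, leaving aside the Cyp2b, Cyp2c and Cyp4a subfamilies. The 30 genes were every row of the signal table whose name begins with Cyp2a, Cyp2d, Cyp2e, Cyp2f, Cyp2g, Cyp2j, Cyp2r, Cyp2s, Cyp2u, Cyp4b, Cyp4f, Cyp4v or Cyp4x, out of 18138 named rows. The data were 77 liver samples of male B6C3F1 mice exposed for 7 days and measured on Illumina bead arrays. Di(2-ethylhexyl) phthalate (DEHP) was given at 750, 1500, 3000 and 6000 ppm, and n-butyl benzyl phthalate (BBP) at 1500, 3000, 6000 and 12000 ppm, with 4 samples at each dose. Di-n-octyl phthalate (DNOP) was given at 2500, 5000 and 10000 ppm and at a lowest dose whose label reads 1.25K, with 4 samples each but 3 at 10000 ppm. Phenobarbital (PB) was given at 75, 150, 300 and 600 ppm with 4 samples each. The untreated groups (0 ppm) were 10 phthalate controls and 4 PB controls. The labels name neither the medium that the ppm refer to nor separate animals, so p-values measure the spread between these samples, which may in part be technical. Several samples of a group share a number in their labels; each PB dose holds 2 numbers and the phthalate controls hold 4.

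P450s are haem enzymes of the endoplasmic reticulum that receive electrons from cytochrome P450 reductase and insert oxygen into drugs, steroids, fatty acids and eicosanoids. In mouse liver many family 2 genes are targets of the constitutive androstane receptor (CAR), which phenobarbital activates, whereas PPARα, the receptor that phthalate monoesters activate, is known above all for inducing Cyp4a genes. The genes described here lie largely in tandem clusters, among them Cyp2d on chromosome 15, Cyp4f on chromosome 17, Cyp2j on chromosome 4, and Cyp2a with Cyp2f2, Cyp2g1 and Cyp2s1 on chromosome 7. Bead probes can cross-hybridise between such close relatives, and how far they do was not tested.

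Each row gives 1 intensity per sample and a detection p-value against the negative control beads, and a gene was called detected in a sample at a detection p under 0.05. Between 36.88% and 46.64% of rows were detected per sample, and the mean signal per array ran from 132.2 to 519.5. Precision is limited by the number of arrays. Of 7 hepatocyte markers, Apoa1, Apoc3, Ttr and Ahsg were detected in all 77 samples, with median signals between 9993 and 18180. Serpina1a was also detected in all 77 (median 2845), and Fgb in 61 (median 135.5). The row of Alb (albumin) had a median signal of only 208.7, so a dim row does not show that a gene is little expressed. The 3 markers of lung club cells were detected in at most 1 sample each. Some markers of other cells were detected in all 77 samples. Among them were Hba-a1 of red cells (median 5463), Clec4g of endothelium (2755), Dcn of stellate cells (1555) and Ela1 of exocrine pancreas (1096). The 3 phthalate controls numbered 32 stood apart from the other 7 for several P450s, so each phthalate call against the controls that was lost or gained without them is named.

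Of the 30 P450 genes, 15 were detected in all 77 samples, 11 in some and 4 in none. Detected throughout were Cyp2a5 and Cyp2a12, Cyp2d9, Cyp2d10, Cyp2d22, Cyp2d26 and Cyp2d40, Cyp2e1, Cyp2f2, Cyp2j9, Cyp4b1, Cyp4f13, Cyp4f14 and Cyp4f15, and Cyp4v3. Cyp2d34, Cyp2j5, Cyp2j13 and Cyp2r1, the last a vitamin D 25-hydroxylase, were detected in no sample. Cyp2j6, Cyp2j11 and Cyp4x1 were detected in 1 sample each. Cyp2d13, a transcribed pseudogene in RefSeq, was detected in 76 samples and Cyp2u1, a fatty acid hydroxylase, in 74. Cyp4f16 was detected in 46 samples, Cyp2d12 in 44 and Cyp4f39, an acylceramide-forming hydroxylase of skin, in 24. Cyp2s1 was detected in 16 samples, Cyp2g1, an olfactory mucosa enzyme, in 8, and Cyp4f18, a leukotriene hydroxylase of neutrophils, in 5. The 23 genes detected in at least 3 samples were tested together with all 11324 rows that passed the same filter; the 7 untested were Cyp2d34, Cyp2j5, Cyp2j6, Cyp2j11, Cyp2j13, Cyp2r1 and Cyp4x1.

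**Figure D1:**
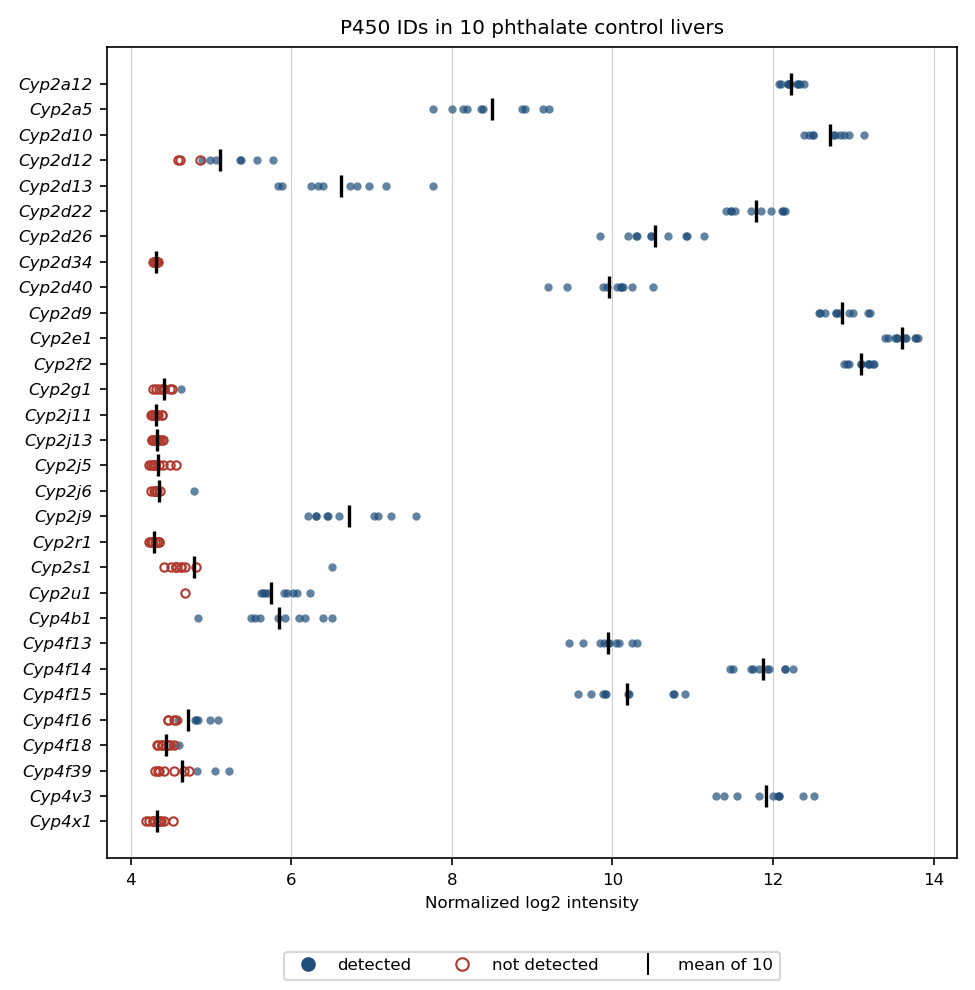
Normalized log2 intensity (x axis) of each of the 30 P450 rows (y axis, by name) in the 10 phthalate control samples. Filled points are detected samples, open points are not detected, and the tick is the mean. Cyp2e1 lay between 13.4 and 13.81, whereas Cyp2d34, Cyp2j5, Cyp2j13 and Cyp2r1 had no filled point; levels of different rows come from different probes and are not compared.

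Spread differed between genes. The pooled standard deviation within groups was 0.127 on the log2 scale for Cyp2e1, which oxidises ethanol and acetaminophen, and 0.138 for Cyp2f2. It was 0.428 for Cyp2a5, 0.396 for Cyp2d40 and 0.627 for Cyp2d13. A change of the same size was therefore easier to resolve for Cyp2e1 and Cyp2f2 than for Cyp2d13.

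Promoters are shown for 4 genes on which the results below turn: Cyp2a5, Cyp2d40, and the neighbours Cyp4f14 and Cyp4f15, which changed in opposite directions under DEHP. Sequences are the 250 bases before a transcript start in a promoter table from RefSeq (GRCm38.p6), 5′ to 3′ on the strand of the gene, with capitals marking TATAAA, the core of a TATA box, on either strand (TTTATA is its reverse complement). AGGTCA, a motif bound by many nuclear receptors, would also be in capitals but occurs on neither strand of these 4 windows. Cyp2a5 is at chr7:26835089-26835338 (+), Cyp2d40 at chr15:82764123-82764372 (−), Cyp4f14 at chr17:32917357-32917606 (−, the most upstream of 4 starts in that table) and Cyp4f15 at chr17:32685409-32685658 (+). The RefSeq gene records of Cyp4f14 and Cyp4f15 begin slightly upstream of these starts, so both windows include a few bases of the recorded gene.
Cyp2a5: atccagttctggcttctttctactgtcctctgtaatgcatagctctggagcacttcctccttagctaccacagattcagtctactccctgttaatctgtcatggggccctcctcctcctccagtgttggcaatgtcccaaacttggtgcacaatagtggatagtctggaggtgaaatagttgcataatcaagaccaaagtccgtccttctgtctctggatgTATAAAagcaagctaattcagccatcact
Cyp2d40: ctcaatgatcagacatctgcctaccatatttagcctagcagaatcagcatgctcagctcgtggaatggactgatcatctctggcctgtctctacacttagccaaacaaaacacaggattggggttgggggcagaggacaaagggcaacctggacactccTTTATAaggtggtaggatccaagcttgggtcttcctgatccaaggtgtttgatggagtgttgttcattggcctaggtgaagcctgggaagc
Cyp4f14: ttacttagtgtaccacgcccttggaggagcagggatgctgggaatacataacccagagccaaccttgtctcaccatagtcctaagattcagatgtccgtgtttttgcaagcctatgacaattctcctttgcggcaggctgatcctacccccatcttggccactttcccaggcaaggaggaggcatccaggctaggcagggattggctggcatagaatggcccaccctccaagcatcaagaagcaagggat
Cyp4f15: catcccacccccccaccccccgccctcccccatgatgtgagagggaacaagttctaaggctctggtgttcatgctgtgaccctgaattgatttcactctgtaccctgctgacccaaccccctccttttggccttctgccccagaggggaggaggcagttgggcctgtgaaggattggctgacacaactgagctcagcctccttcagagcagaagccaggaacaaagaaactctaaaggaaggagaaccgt
The TATAAA of Cyp2a5 begins 29 bases before the start, and the match of Cyp2d40 lies on the other strand 91 bases before it. Of the 23 genes with an entry in the promoter table, 8 held TATAAA and 2 held AGGTCA (Cyp2f2 and Cyp2j5), against 13% and 13.8% of all 27025 promoters of that length. These are not the 23 tested genes. They include the untested Cyp2j5, Cyp2j6, Cyp2j11, Cyp2j13 and Cyp2r1 and lack the tested Cyp2d12, Cyp2d13, Cyp2d22, Cyp2g1 and Cyp2u1. A match is a description of the letters only. Cyp2a5, Cyp2d40 and Cyp4f14 thus differ in whether and on which strand the TATA letters occur, and the 2 Cyp4f windows hold neither motif.

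Each dose was compared with its own controls (limma, Benjamini-Hochberg adjusted p under 0.05 over all 11324 rows), and 12 of the 23 tested P450s passed at 1 or more doses. Of the 368 pairs of gene and dose, 34 passed, 16 higher and 18 lower. These counts include Cyp2g1 and its 2 higher calls under PB, although it met the detection filter only through those high groups. Among all rows, 0% to 11.6% passed at a single dose. Neither the share of rows that passed at 1 or more doses nor the share of all pairs was computed. These 2 counts therefore cannot be set against all rows, and the shares at each dose are given with each compound below. In the plot of log2 changes, Cyp2a5, Cyp2d12 and Cyp2d13 rose under PB, while Cyp2d40 and Cyp4f14 fell under DEHP and at the highest BBP dose. Under both DEHP and PB, Cyp2a5 passed as higher and Cyp2f2 and Cyp4v3 as lower, and no gene passed in both directions. The 11 genes that never passed ranged from -0.58 to 0.53, with 95% intervals reaching from -1.04 to 1.1. In whole liver RNA, fewer cells of a type and less RNA per cell cannot be told apart.

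**Figure D2:**
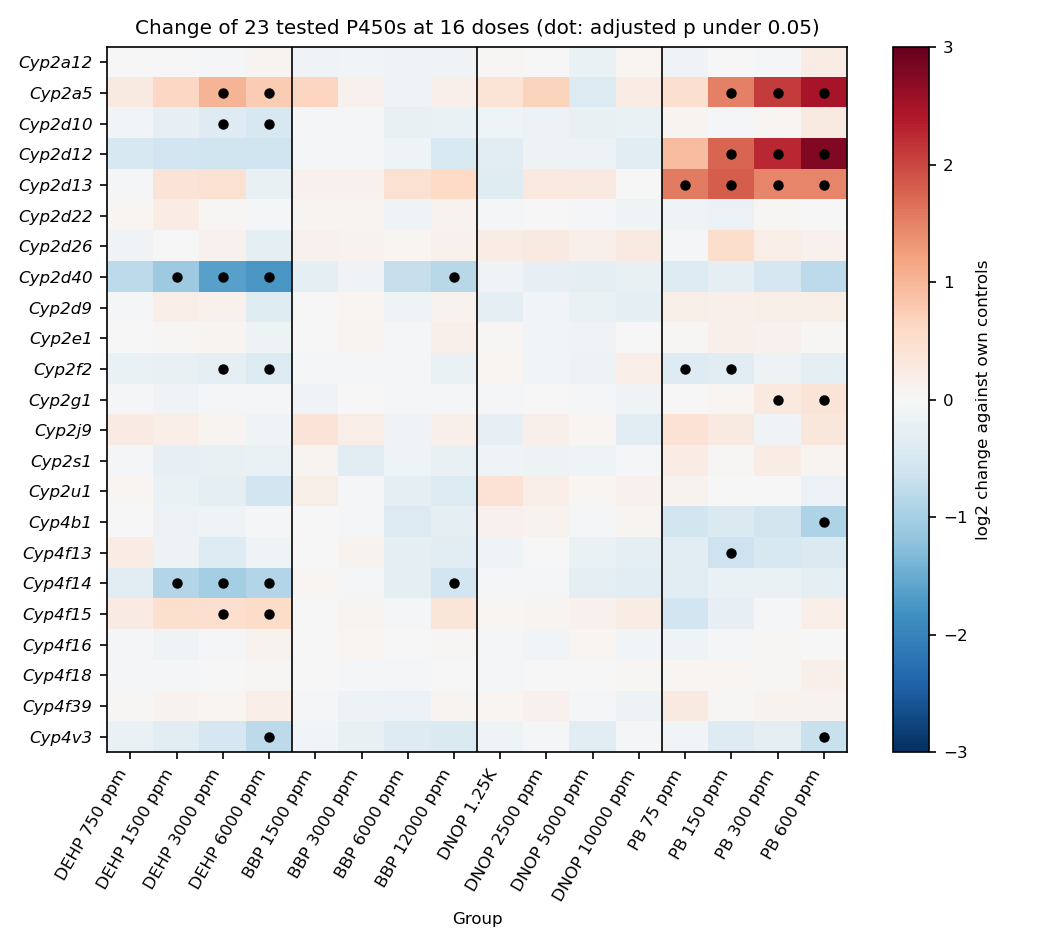
Log2 change (colour) of the 23 tested P450s (rows) at the 16 doses (columns) against their own controls; a dot marks an adjusted p under 0.05. Dots fall in the DEHP and PB columns and at BBP 12000 ppm, none in the DNOP columns; values run from 2.78 (Cyp2d12 at PB 600 ppm) to -1.75 (Cyp2d40 at DEHP 6000 ppm).

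Cyp2d12, a Cyp2d gene of chromosome 15, rose under PB at 150, 300 and 600 ppm. In the 4 PB controls its log2 intensity was 4.36, 5.29, 4.84 and 4.57, detected in 1 of 4 samples. At 150 ppm it was 6.59, 6.04, 7.15 and 6.29, and at 600 ppm 8.63, 7.23, 7.31 and 7.01, detected in 4 of 4 at both doses. Every sample at 150, 300 and 600 ppm lay above every control, while the samples at 75 ppm (5.14, 6.51, 4.83 and 6.32) overlapped them. The change was 0.93 ± 0.31 (SE) at 75 ppm and did not pass (adjusted p = 0.0549). It was 1.75 at 150 ppm, 2.27 at 300 ppm and 2.78 ± 0.31 at 600 ppm, the last a 6.86-fold rise (adjusted p = 7.2e-10). The size rests on how background is removed: over the alternative scalings the change at 600 ppm ran from 1.84-fold to 8-fold, and at 150 ppm it was 0.31 and did not pass with the background of neqc (adjusted p = 0.0988).

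Cyp2a5, the mouse coumarin hydroxylase, which also oxidises nicotine, rose under PB as well. Its log2 intensity was 9.17, 8.72, 9.07 and 8.77 in the PB controls. It was 9.28, 9.13, 9.68 and 9.56 at 75 ppm, 10.66, 10.49, 10.44 and 10.19 at 150 ppm, and 11.29, 10.67, 11.31 and 10.83 at 300 ppm. At 600 ppm it reached 11.42, 11.72, 11.49 and 11.02. From 150 ppm on, no treated sample overlapped the controls, and only at 75 ppm did the lowest sample lie within them. The change was 0.48 at 75 ppm (adjusted p = 0.366), 1.51 at 150 ppm, 2.09 at 300 ppm and 2.48 ± 0.306 (SE) at 600 ppm. The last is a 5.58-fold rise (adjusted p = 1.54e-08). The calls at 150, 300 and 600 ppm held under every alternative and without each sample in turn, with folds at 600 ppm between 4.86 and 11.5 over the scalings.

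Cyp2d13, the pseudogene of the same cluster, was higher at every PB dose, with no order between doses. Controls had 4.41, 5.91, 6.57 and 6.06, and the first was not detected. At 75 ppm the values were 5.94, 8.8, 7.03 and 7.29, at 150 ppm 7.64, 7.82, 7.73 and 6.89, and at 300 ppm 7.41, 7.58, 7.11 and 6.59. At 600 ppm they were 7.19, 7.49, 6.41 and 7.63. The treated samples at 150 and 300 ppm lay above all controls, and those at 75 and 600 ppm overlapped them. The change was 1.55 ± 0.452 (SE; adjusted p = 0.027) at 75 ppm, 1.81 (adjusted p = 0.00608) at 150 ppm, 1.46 (adjusted p = 0.032) at 300 ppm and 1.47 (adjusted p = 0.0266) at 600 ppm. PB control replicate 1, in which the row was not detected, decided much of this: without it none of the 4 calls held, and the lowest changes with 1 sample left out were 1.02, 1.35, 1 and 1.01. Processing mattered too. Of 10 alternatives, 3 lost the call at 75 ppm, 0 at 150 ppm, 4 at 300 ppm and 3 at 600 ppm. Over the scalings the fold ran from 1.36 to 3.41 at 300 ppm and from 1.38 to 3.73 at 600 ppm.

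Cyp2g1, of the same cluster as Cyp2a5 on chromosome 7, passed at 300 and 600 ppm PB, detected in 3 of 4 samples at each dose and in 0 of 4 controls. It met the filter of 3 detected arrays only through those samples, which are 6 of its 8 detected samples, so its calls are a description and support nothing. Against the detection bound of the controls the rise was at least 1.13-fold and at least 1.22-fold. Over the other scalings the fitted fold was as low as 1.02 and 1.03, the deposited matrix gave no call, and relative to the median of all rows under median centring the changes were -0.28 and -0.23.

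**Figure D3:**
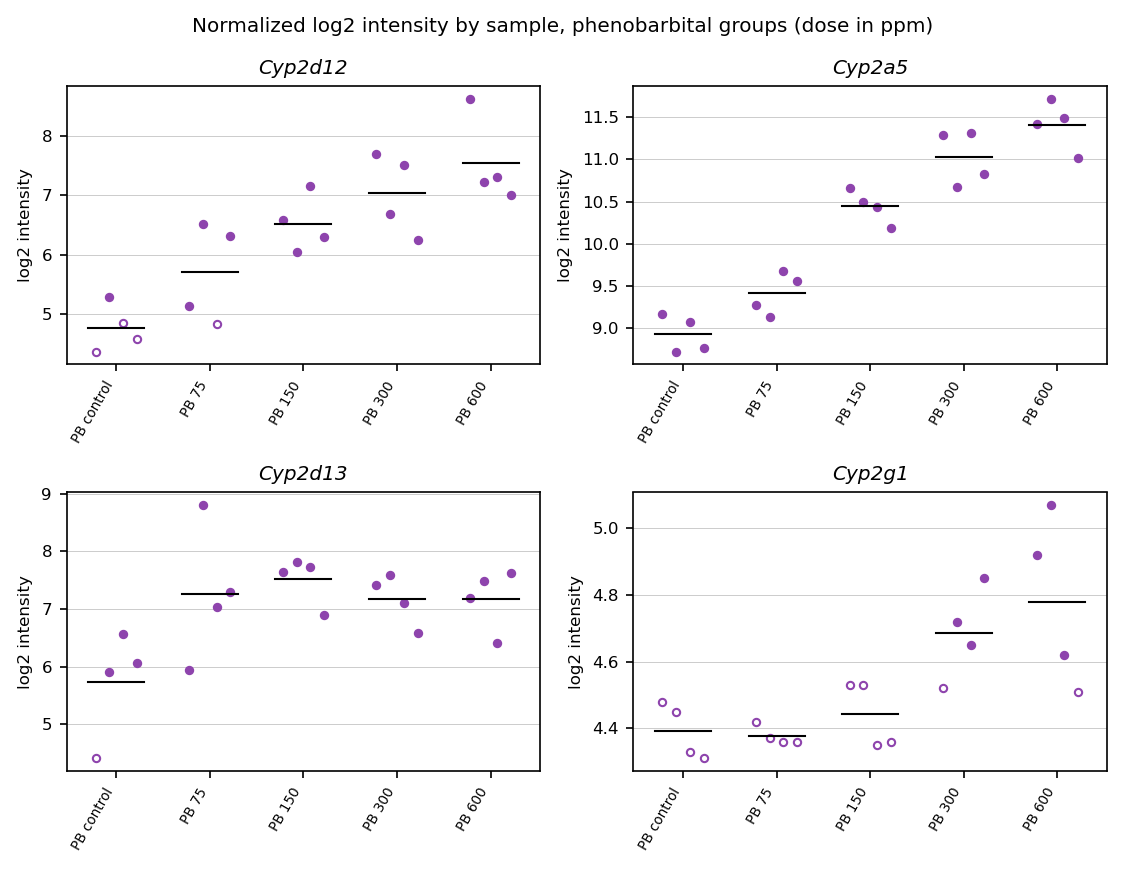
Normalized log2 intensity (y axis) of Cyp2d12, Cyp2a5, Cyp2d13 and Cyp2g1 in every PB control and PB sample (x axis, dose in ppm); filled points are detected, open points not detected, and the line is the group mean. Cyp2d12 and Cyp2a5 climb with dose, from group means of 4.76 and 8.93 to 7.55 and 11.41, while Cyp2d13 stays between 7.17 and 7.52 at all 4 doses.

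Against these rises, 4 P450s fell at 1 or 2 PB doses each. Cyp2f2, which activates naphthalene in mouse lung and is also a periportal liver gene, fell by 0.39 at 75 ppm (SE 0.104, adjusted p = 0.0143) and by 0.31 at 150 ppm (adjusted p = 0.0385). Cyp4f13 fell by 0.63 at 150 ppm (SE 0.18, adjusted p = 0.0168). At 600 ppm Cyp4v3, the counterpart of the human fatty acid hydroxylase mutated in Bietti corneoretinal dystrophy, fell by 0.67 (SE 0.225, adjusted p = 0.0424), and Cyp4b1, which activates the pneumotoxin ipomeanol, fell by 0.93 (SE 0.296, adjusted p = 0.0331). Of these, only Cyp2f2 at both doses and Cyp4f13 had treated samples that did not overlap the controls. The falls of Cyp2f2 at 150 ppm, Cyp4f13 and Cyp4v3 turned to 0.16, 0.37 and 0.04 when arrays were only centred on their medians, a scaling under which the median of all rows rose by 0.55 at 150 ppm and 0.54 at 600 ppm. Relative to that median they were -0.39, -0.18 and -0.5. Cyp4b1 was between -0.38 and -0.15 over the other scalings, and its call was lost with median centring and without any of 5 single samples. All 5 of these calls were lost when samples sharing a number were averaged. Beside the falls at 600 ppm, 2 of 6 stellate cell markers (Lrat and Dcn) and 1 of 3 pancreas markers (Ela1) also fell and 1 of 6 Kupffer cell markers (Emr1) rose, and their part in the result was not tested.

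In counts, 2 of 23 P450s passed at 75 ppm PB (1 higher, 1 lower), against 6.46% of all rows (2.53% higher, 3.92% lower). At 150 ppm 5 passed (3 higher, 2 lower), against 11.6% (4.77% higher, 6.81% lower). At 300 ppm 4 passed, all higher, against 8.46% (3.23% higher, 5.23% lower). At 600 ppm 6 passed (4 higher, 2 lower), against 9.96% (4.34% higher, 5.62% lower). The shares of the P450s were 8.7%, 21.7%, 17.4% and 26.1% of 23 genes. Without Cyp2g1, which met the filter only through its high groups, 3 passed at 300 ppm and 5 at 600 ppm. The median change of the P450s was -0.02, 0, 0.04 and 0.1, and that of all rows between 0 and 0.01. With median centring the counts were 0, 10, 10 and 11, all higher, against 0.159%, 46.3%, 35.5% and 45.5% of all rows.

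The reductase that feeds these enzymes and genes known as CAR targets were followed as a backdrop. Their link to the P450 changes was not tested. Por, cytochrome P450 reductase, rose 2.16-fold at 300 ppm and 3.4-fold at 600 ppm PB (adjusted p = 0.0374 and 0.000484). Pgrmc1, a haem-binding P450 partner, was the only other of 11 redox, haem and receptor genes to pass, 3.49-fold higher at 150 ppm (adjusted p = 0.0452). Of 32 CAR target genes, Por among them, 8, 12, 19 and 24 were higher at the 4 PB doses and 0 lower, with median changes from 0.44 to 1.46. Of 18 pericentral hepatocyte genes 2, 4, 3 and 3 were higher and 0 lower, and of 20 periportal genes 1 was lower at 600 ppm and 0 passed at the other doses (limma).

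DEHP lowered Cyp2d40, another Cyp2d gene, more than any other P450 tested here. The 10 phthalate controls had a lowest log2 intensity of 9.2, a median of 10.09 and a highest of 10.51. It was 9.17, 9.66, 8.71 and 9.16 at 750 ppm and 8.84, 9.53, 8.24 and 8.82 at 1500 ppm. At 3000 ppm it was 8.71, 8.08, 8.07 and 8.44, and at 6000 ppm 8.98, 7.83, 7.9 and 8.1. All samples at 3000 and 6000 ppm lay below every control, and at both lower doses 1 of 4 samples lay within the control range. The change was -0.78 at 750 ppm (adjusted p = 0.0698), -1.09 at 1500 ppm (adjusted p = 0.00153) and -1.63 at 3000 ppm (adjusted p = 5.39e-07). At 6000 ppm it was -1.75 ± 0.236 (SE), a 3.37-fold fall (adjusted p = 6.32e-08), and -1.73 without the controls numbered 32. The call at 1500 ppm was lost, at an adjusted p of 0.0502, with median centring.

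Cyp4f14, a mouse leukotriene B4 and vitamin E hydroxylase, fell at the same DEHP doses. The lowest control was at 11.47, the median at 11.88 and the highest at 12.25. Values were 11.13, 11.1, 10.51 and 11.29 at 1500 ppm, 11.01, 10.82, 10.65 and 11 at 3000 ppm, and 11.67, 10.86, 10.82 and 10.58 at 6000 ppm. No sample at 1500 or 3000 ppm overlapped the controls, and 1 of 4 at 6000 ppm did. The change was -0.31 at 750 ppm (adjusted p = 0.426), -0.87 at 1500 ppm (adjusted p = 0.000231), -1.01 ± 0.164 (SE) at 3000 ppm (adjusted p = 6.71e-06) and -0.89 at 6000 ppm (adjusted p = 6.1e-05). At 3000 ppm this was a 2.01-fold fall, and without the controls numbered 32 the change was -1.03. With median centring the 3 changes were -0.84, -0.69 and -0.61 and none passed (adjusted p = 0.0771, 0.0803 and 0.106), while the median of all rows rose by 0.12 at 3000 ppm and 0.15 at 6000 ppm.

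Cyp4f15, the neighbour of Cyp4f14 on chromosome 17, went the other way. The controls had a lowest value of 9.57, a median of 10.06 and a highest of 10.91, and the 3 numbered 32 (mean 10.81) all lay above the other 7 (mean 9.92, highest 10.21). At 3000 ppm DEHP the range was 10.64 to 10.72 and at 6000 ppm 10.5 to 10.82, above all of the 7. The samples at 3000 ppm lay just below the 3 (lowest 10.75), and those at 6000 ppm overlapped them. The change was 0.51 ± 0.171 (SE; adjusted p = 0.0474) at 3000 ppm and 0.54 (adjusted p = 0.0302) at 6000 ppm. Without the controls numbered 32 it was 0.77 (adjusted p = 0.000325) and 0.8 (adjusted p = 0.000163), and it then passed at 1500 ppm as well (0.73, adjusted p = 0.00104). The call at 3000 ppm was lost without each of phthalate control replicates 4 to 10 and without each of the 4 DEHP samples, and also with the background of neqc, median centring, no filter or averaging of samples that share a number. The call at 6000 ppm was lost without any of 7 single samples (phthalate control replicates 5 to 8 and DEHP replicates 1, 2 and 4).

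Cyp2a5 was higher under DEHP too. The lowest control was at 7.76, the median at 8.37 and the highest at 9.21. At 3000 ppm the values were 9.78, 9.57, 9.02 and 9.77, and at 6000 ppm 8.45, 10.28, 9.21 and 9.08. The group at 3000 ppm overlapped the top of the control range with 1 sample, and the group at 6000 ppm reached from within that range to above it. The change was 1.03 ± 0.253 (SE), 2.04-fold, at 3000 ppm (adjusted p = 0.00379) and held under every alternative. At 6000 ppm it was 0.75 (adjusted p = 0.0469), and this call was lost in 5 of 11 alternatives, among them without the controls numbered 32 (0.77, adjusted p = 0.0545), and without any of 9 single samples, with changes from 0.41 to 1.02. The difference between its responses to DEHP and PB was not tested, since the doses and the controls differ.

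**Figure D4:**
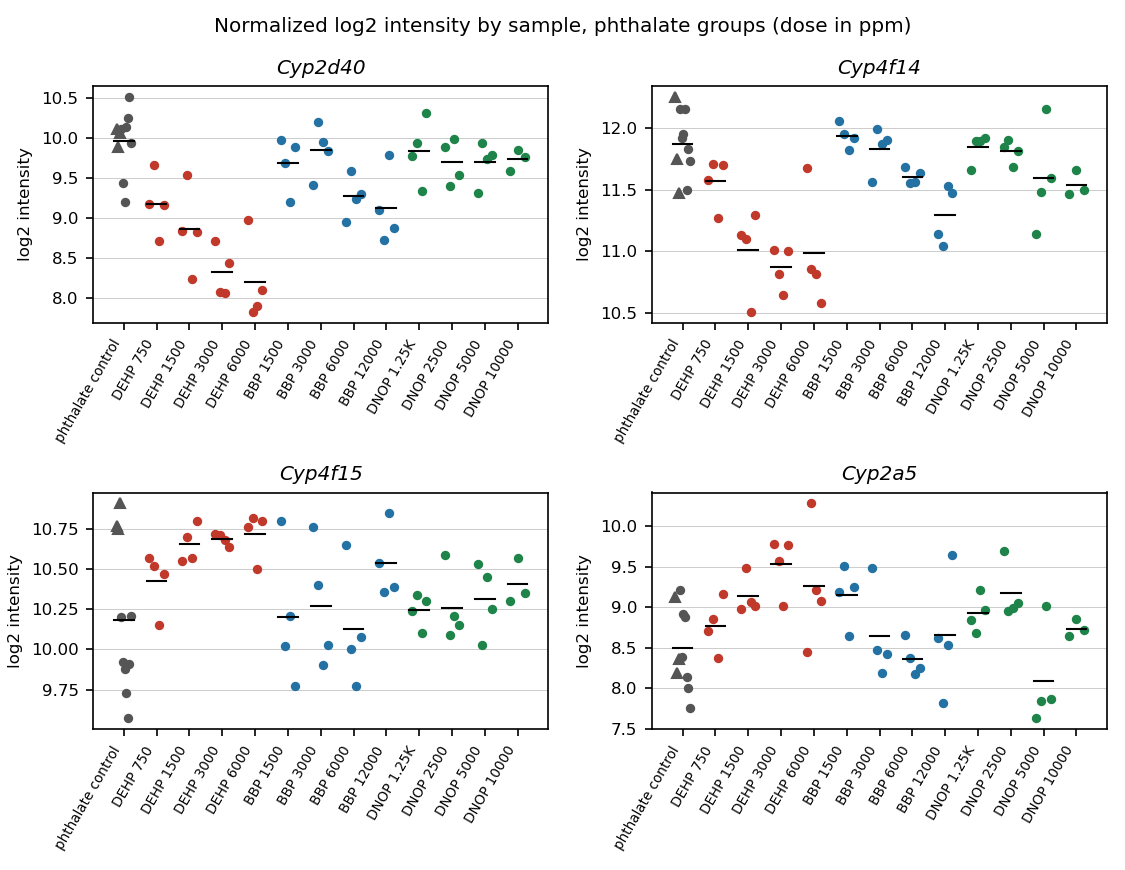
Normalized log2 intensity (y axis) of Cyp2d40, Cyp4f14, Cyp4f15 and Cyp2a5 in every phthalate control and phthalate sample (x axis, dose in ppm); triangles are the controls numbered 32 and the line is the group mean. Cyp2d40 steps down over the 4 DEHP doses to a mean of 8.2, and the Cyp4f15 samples at 3000 and 6000 ppm DEHP lie above every round control point and near the triangles (mean 10.81).

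Smaller falls under DEHP involved Cyp2f2, Cyp2d10 and Cyp4v3. Cyp2f2 fell by 0.29 at 3000 ppm (adjusted p = 0.0206) and by 0.41 at 6000 ppm (SE 0.0859, adjusted p = 0.000394); at 6000 ppm no sample overlapped the controls. Cyp4v3 fell by 0.78 at 6000 ppm (SE 0.186, adjusted p = 0.0024) and by 0.66 without the controls numbered 32. With median centring Cyp2f2 was at -0.07 and -0.29 (adjusted p = 0.832 and 0.292) and Cyp4v3 at -0.5 (adjusted p = 0.292), so that none passed. The call of Cyp2f2 at 3000 ppm was also lost with averaging of samples that share a number and without DEHP replicate 1 or 2. Cyp2d10 fell by 0.38 at 3000 ppm (adjusted p = 0.0323) and by 0.47 at 6000 ppm (SE 0.119, adjusted p = 0.00511), but the controls numbered 32 averaged 12.99 against 12.6 in the others. Without them the changes were -0.27 and -0.35 and did not pass (adjusted p = 0.192 and 0.0505). Cyp2u1 at 6000 ppm passed only without them (-0.7, adjusted p = 0.0414). Cyp2d12, which rose under PB, was detected in 7 of 10 controls and in 0 of 4 samples at each of 1500, 3000 and 6000 ppm DEHP, where its change was -0.58, -0.6 and -0.6 and did not pass (adjusted p from 0.14 to 0.215).

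In counts, 0 of 23 P450s passed at 750 ppm DEHP in limma, against 1.91% of all rows. At an unadjusted p under 0.05 there were 2 of 23, against 1468 of all 11324 rows. At 1500 ppm 2 passed, both lower, against 4.58% (2.54% higher, 2.04% lower). At 3000 ppm 6 passed (2 higher, 4 lower), against 8.44% (4.45% higher, 3.99% lower). At 6000 ppm 7 passed (2 higher, 5 lower), against 9.39% (5.24% higher, 4.15% lower). The P450 shares were 8.7%, 26.1% and 30.4% at the 3 upper doses, and their median change was -0.1, -0.04 and -0.15. With median centring 0, 2 and 3 passed at these doses (0 and 0, 1 and 1, 2 and 1 higher and lower), against 1.17%, 6% and 8.72% of all rows. The counts without the controls numbered 32 were 3, 5 and 6 at 1500, 3000 and 6000 ppm, against 6.47%, 8.25% and 9.6% of all rows. With all controls, 3 passed at 3000 ppm without DEHP replicate 1 or without replicate 2.

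Other genes moved beside them. Of 41 PPARα targets 32, 36 and 30 were higher at 1500, 3000 and 6000 ppm DEHP and 0 lower, and of 32 CAR targets 7, 15 and 12 were higher and 0 lower. Por rose 1.86-fold at 3000 ppm and 2.18-fold at 6000 ppm (adjusted p = 0.0406 and 0.00585). Nr1i3, which encodes CAR, rose 1.93-fold at 3000 ppm (adjusted p = 0.0107), and Cyb5b, an outer mitochondrial membrane cytochrome b5, 1.47-fold at 6000 ppm (adjusted p = 0.00266). Of 20 genes known to be higher in male than female mouse liver, 3 were higher and 9 lower at 3000 ppm, and of 11 known to be higher in females, 6 were higher and 0 lower. Cyp2d9, a male-predominant testosterone hydroxylase, was between -0.37 and 0.21 over all 16 doses and never passed (lowest adjusted p = 0.0962). Beside the fall of Cyp2f2, of 20 periportal genes 2 were lower at 3000 ppm and 4 at 6000 ppm, and 0 higher. Of 18 pericentral genes 3 were lower and 2 higher at each of these doses. Of 6 red cell markers 2 were lower at 3000 ppm and 1 at 6000 ppm, with a median change of -0.57 and -0.74, 1 of 7 hepatocyte markers (Fgb) was lower at both, and 1 of 3 pancreas markers (Ela1) was lower at both; the part of these in the P450 changes was not tested.

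Genes that handle the lipid substrates of these P450s were followed as well. Of 17 eicosanoid genes 4 were higher and 0 lower at 3000 ppm DEHP, led by Ephx1, microsomal epoxide hydrolase (2.74-fold, adjusted p = 4.01e-07), Hpgd, which inactivates prostaglandins (2.7-fold, adjusted p = 0.0031), and Pla2g6, a phospholipase (2.39-fold, adjusted p = 3.31e-06). Of 18 vitamin D and retinoid genes 3 were higher and 2 lower at that dose, with Rdh16, a retinol dehydrogenase, 4.28-fold higher (adjusted p = 2.99e-06) and Rdh5 2.32-fold lower (adjusted p = 5.48e-10). Under 600 ppm PB 3 eicosanoid genes were higher, among them Akr1b7, an aldose reductase-like enzyme, 7.93-fold (adjusted p = 2.42e-13).

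BBP, which carries a butyl and a benzyl ester in place of the branched ethylhexyl esters of DEHP, gave P450 calls at its highest dose and at no other. At 12000 ppm Cyp2d40 had 9.1, 8.72, 9.78 and 8.88, a change of -0.83 ± 0.236 (SE; adjusted p = 0.0334), and Cyp4f14 had 11.14, 11.04, 11.53 and 11.47, a change of -0.58 ± 0.164 (adjusted p = 0.0328). Both groups overlapped the controls. These 2 of 23 stand against 2.94% of all rows (1.5% higher, 1.44% lower). Without the controls numbered 32 Cyp2d40 no longer passed (-0.81, adjusted p = 0.0576), Cyp4f14 still did (-0.6, adjusted p = 0.0282), and Cyp4f15 was higher (0.62, adjusted p = 0.0105). The count fell to 1 or 0 without any of phthalate control replicates 1, 4, 7 and 9 or BBP replicates 1, 2 and 4 of 12000 ppm, and to 0 with median centring. At 1500, 3000 and 6000 ppm 0 passed in limma, against 0%, 0% and 0.0795% of all rows (0.053% higher and 0.0265% lower at 6000 ppm). At an unadjusted p under 0.05 there were 1, 0 and 2 of 23, against 399, 435 and 990 of all 11324 rows. At 6000 ppm Cyp2d40 was at -0.68 (adjusted p = 0.297).

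DNOP, with straight octyl chains, gave no P450 call at any of its 4 doses in limma. The shares of all rows were 0%, 0.238%, 0.212% and 0.0618%. At 2500 ppm 0.053% were higher and 0.185% lower, at 5000 ppm 0.15% and 0.0618%, and at 10000 ppm 0.0618% and 0%. At an unadjusted p under 0.05 there were 0, 1, 1 and 1 of 23 P450s, against 454, 979, 958 and 605 of all 11324 rows. The changes of the 23 genes ran from -0.42 (Cyp2a5 at 5000 ppm, 95% interval -0.92 to 0.09) to 0.66 (Cyp2a5 at 2500 ppm, 95% interval 0.16 to 1.17, adjusted p = 0.387). Cyp2d40 was between -0.26 and -0.11 and Cyp4f14 between -0.33 and -0.04. For Cyp2d40 at 10000 ppm the interval was -0.74 to 0.3, with 3 samples. DNOP shares no dose with DEHP or BBP, so it was not tested against them.

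DEHP and BBP were compared directly at the 3 doses both were given, 1500, 3000 and 6000 ppm. At 1500 ppm 1 of 23 P450s differed, against 1.7% of all rows. Cyp4f14 was lower under DEHP by 0.92 (95% interval -1.31 to -0.54, adjusted p = 0.00231). At 3000 ppm 2 differed, against 4.11%. Cyp2d40 was lower under DEHP by 1.52 (-2.07 to -0.97, adjusted p = 0.000104) and Cyp4f14 by 0.96 (-1.35 to -0.58, adjusted p = 0.000485), and the groups did not overlap for either. At 6000 ppm 2 differed, against 2.24%. Cyp2d40 was lower by 1.07 (-1.62 to -0.52, adjusted p = 0.0181) and Cyp2f2 by 0.37 (-0.57 to -0.17, adjusted p = 0.0311).

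Other contrasts between DEHP and BBP did not pass. For Cyp4f14 at 6000 ppm the difference was -0.62 (95% interval -1.01 to -0.24, adjusted p = 0.0737), and for Cyp2d40 at 1500 ppm -0.83 (-1.38 to -0.27, adjusted p = 0.146). For Cyp2a5 it was -0.01 at 1500 ppm (-0.6 to 0.58), 0.9 at 3000 ppm (0.31 to 1.49, adjusted p = 0.0714) and 0.89 at 6000 ppm (0.3 to 1.48, adjusted p = 0.122). For Cyp4f15 at 6000 ppm it was 0.59 (0.19 to 0.99, adjusted p = 0.131). For Cyp2e1 the 3 intervals together reached only from -0.29 to 0.22. With median centring 0 differed at any of the 3 doses (limma; Cyp2d40 at 3000 ppm had an adjusted p of 0.0504). At 6000 ppm the count was 0 without BBP replicate 2 or 4 or DEHP replicate 2 or 3, 1 without DEHP replicate 4 and 4 without DEHP replicate 1.

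**Figure D5:**
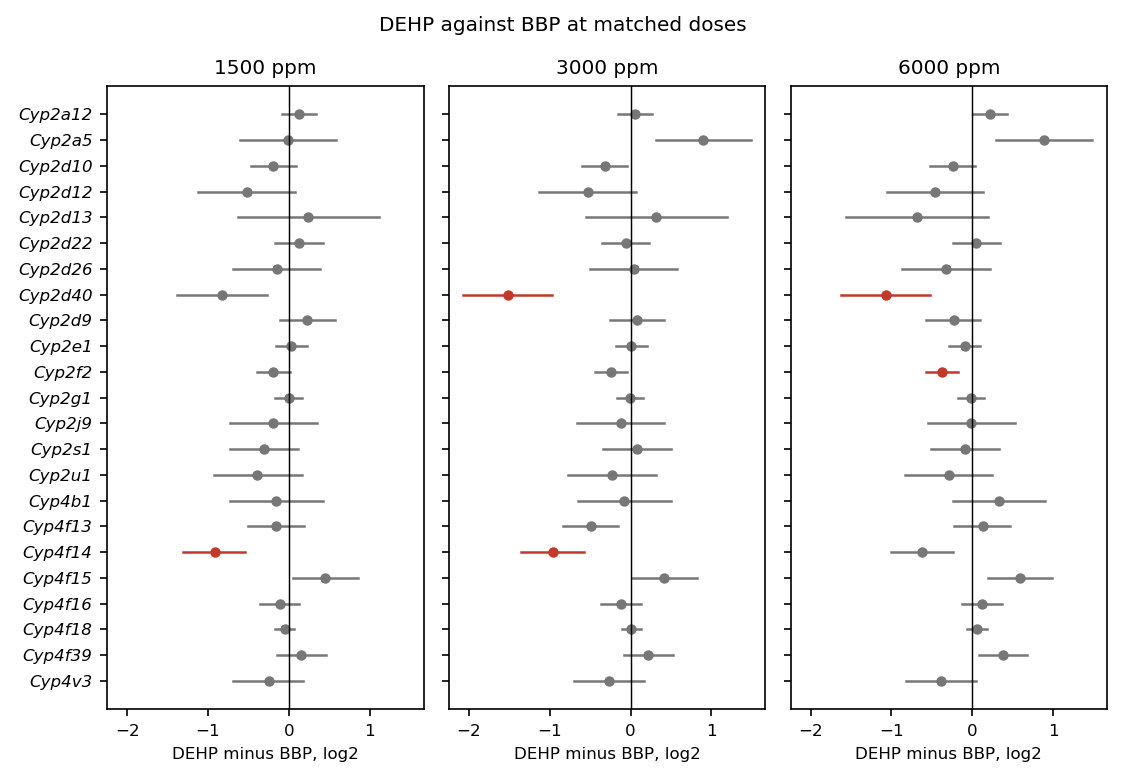
Difference between DEHP and BBP (x axis, log2, DEHP minus BBP) for the 23 tested P450s at 1500, 3000 and 6000 ppm; points are fitted differences, lines 95% intervals, and red marks an adjusted p under 0.05. Cyp4f14 at 1500 and 3000 ppm, Cyp2d40 at 3000 and 6000 ppm and Cyp2f2 at 6000 ppm are red, all to the left of 0.

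Within clusters, calls went in both directions, though often under different compounds. Of the 8 Cyp2d rows on chromosome 15, 7 were tested: Cyp2d12 and Cyp2d13 were called higher under PB, Cyp2d10 (lost without the controls numbered 32) and Cyp2d40 lower under phthalates, and Cyp2d9, Cyp2d22 and Cyp2d26 never passed. Of the 5 Cyp4f rows on chromosome 17, Cyp4f15 was called higher and Cyp4f14 lower under DEHP, Cyp4f13 lower under PB, and Cyp4f16 and Cyp4f39 never passed. On chromosome 7 Cyp2a5 was called higher and Cyp2f2 lower under both DEHP and PB, Cyp2g1 higher under PB, and Cyp2a12, a bile acid hydroxylase in mouse, stayed between -0.21 and 0.23 without a call.

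The other genes without a call had narrow or wide ranges. Cyp2e1 changed by -0.15 to 0.16 and Cyp2d22 by -0.18 to 0.22. Cyp2d26 ranged from -0.27 to 0.53, Cyp2j9 from -0.32 to 0.44 and Cyp2u1 from -0.58 to 0.44. The dim rows of Cyp2s1 (-0.31 to 0.23), Cyp4f16 (-0.14 to 0.11), Cyp4f18 (-0.07 to 0.16) and Cyp4f39 (-0.18 to 0.28) sat near background in most samples, where a change is compressed. With all controls, none of these 9 genes reached an adjusted p below 0.0888 at any dose.

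PB controls and phthalate controls were compared because the phthalate and PB samples have separate controls. In limma 0 of 23 P450s differed, against 4.65% of all rows. At an unadjusted p under 0.05 there were 5 of 23, against 2147 of all 11324 rows. The nearest was Cyp4f13, higher in PB controls by 0.47 (95% interval 0.17 to 0.77, adjusted p = 0.054). Without the controls numbered 32, Cyp4f13 (0.58, adjusted p = 0.0189) and Cyp2d22 (0.42, adjusted p = 0.0401) were higher in PB controls. With median centring 7 were lower in PB controls, against 39.1% of all rows called, and the median of all rows was -0.44.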

How the data were processed

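Livers of the 77 samples were measured on Illumina bead arrays. Per the file headers, the authors deposited 1 signal (intensity) and 1 detection p-value per row and sample, not normalized, and a separate matrix of processed intensity values whose processing is not given in the sources used here. Groups were taken from the labels. Background mean and SD of each array were inferred from detection p-values on the grid of 798 negative control steps (78.13% of them), followed by normexp with offset 16, log2 and quantile normalization in limma 3.58.1 (R 4.3.3). Rows with a detection p under 0.05 on at least 3 arrays (11324) entered 1 fit of 18 group means over all 77 samples, with the number in the labels as a random block (62 numbers, correlation 0.0991). Adjusted p-values are Benjamini-Hochberg over all tested rows within each of 20 comparisons. The fit was tested on simulated data. Changes are on the scale of log2 intensity after the offset, which understates changes of dim rows.

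Values of single samples are given for called P450s, at most 3 for each compound, those with the largest absolute log2 change at any dose. Other called P450s get the log2 change, SE and adjusted p, those never called their range, and genes of other lists are named where called, at most 4 a list and compound. The P450 genes, the gene lists and the tests were chosen with earlier results of these data known. Of the marker lists, 1 endothelial gene (Stab2) was lower at DEHP 6000 ppm, and cholangiocyte, lymphocyte, club cell and adipocyte markers gave no call in limma. Alternatives covered background, scaling, filter, block, weights, the deposited matrix and left-out samples. No 2 arrays held identical values. All 30 symbols matched RefSeq (GRCm38.p6), used for chromosomes, neighbours, gene types and promoter sequences; the files name no build.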

Additional observations from a re-analysis of the deposited data

Results flagged for a closer look

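Of 108 combinations of gene and group looked at for 1 sample far from the others, 5 stood out by Dixon's criterion, and chance alone gives about 1 in 20. Cyp2a5 was at 9.48 in DEHP 1500 ppm replicate 2 (others 8.98 to 9.07) and at 9.69 in DNOP 2500 ppm replicate 1 (others 8.95 to 9.05). Cyp2d12 was at 5.69 in DNOP 5000 ppm replicate 4 (others 4.59 to 4.76). Cyp2d13 was at 7.38 in BBP 3000 ppm replicate 1 (others 6.47 to 6.59). Cyp4f14 was at 11.66 in the first sample labelled DNOP 1.25K (others 11.89 to 11.92).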

How the results depend on the processing

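Of 39 called values, median centring of each array left 15 with their call and direction, 21 lost the call and 3 turned positive (Cyp2f2 at 0.16 and Cyp4f13 at 0.37 in PB 150 ppm, Cyp4v3 at 0.04 in PB 600 ppm). The median of all rows then moved by more than 0.1 in 11 of 20 comparisons, and relative to it 37 of 39 values kept their sign. Counts of P450s called became 0, 2 and 3 at DEHP 1500, 3000 and 6000 ppm, 0 at BBP 12000 ppm, 0, 10, 10 and 11 over the PB doses, 0 at all 3 doses of DEHP against BBP, and 7 between the controls. In the same order, the shares of all rows were 1.17%, 6% and 8.72%, 1.04%, 0.159%, 46.3%, 35.5% and 45.5%, 0.397%, 2.23% and 1.16%, and 39.1%. Averaging samples of a number, which leaves fewer samples, lost 13 of 39 calls and gave 3 at DEHP 3000 ppm, 1 at BBP 12000 ppm and 1, 3 and 2 at PB 75, 150 and 300 ppm. The shares of all rows were then 5.47%, 1.63%, and 2.52%, 4.82% and 3.66%. Array weights gave 4 at DEHP 1500 ppm, 5 at BBP 12000 ppm and 2, 5 and 4 for DEHP against BBP. All rows called rose as well, to 12.1%, 8.19%, and 3.59%, 10.1% and 4.42%. The deposited matrix gave 2 at PB 300 ppm, against 8.06% of all rows. Between the controls, 1 passed without background correction, without the filter or without the number block, and 2 without the controls numbered 32. The shares of all rows there were 4.84%, 4.62%, 5.61% and 5.17%. Without the number block 1 passed at DEHP 750 ppm, against 2.24% of all rows. The cause of these shifts was not tested.

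The REP numbers of the labels were checked only between phthalate dose groups and showed at most a weak pairing there. Deviations of samples with the same REP number correlated with medians of 0.0293 to 0.0679 and single values from -0.639 to 0.661. For samples with other REP numbers the medians were -0.018 to -0.0126, and single values ran from -0.757 to 0.736. Within the phthalate controls and each PB dose, samples with the same REP number also share the other number of their labels. A replicate block kept all 39 calls and gave 1 at DEHP 750 ppm and 4 at PB 75 ppm, against 2.41% and 8.84% of all rows. It changed no other count by over 1.5 times.

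With 1 sample left out, counts ran from 0 to 1 at DEHP 750 ppm (1 without phthalate control replicate 5 or 6), 3 to 6 at 3000 ppm, 0 to 3 at BBP 12000 ppm, 0 to 4 at PB 75 ppm (0 without PB replicate 2 or 4, 1 without control replicate 1 or 4, 4 without PB replicate 1), 3 to 5 at 150 ppm (3 without control replicate 4 or PB replicate 2), 2 to 4 at 300 ppm (2 without PB replicate 2) and 3 to 5 at 600 ppm (3 without PB replicate 2). They ran from 1 to 2 and 0 to 4 for DEHP against BBP at 1500 ppm (2 without DEHP replicate 2) and 6000 ppm, and from 0 to 1 between the controls (1 without phthalate control replicate 1 or 3). Shares of all rows with a sample left out are not given, here or above. Whether these P450 counts moved with those of all rows was therefore not tested. Signal over background limits the dim rows most: with the background of neqc 5 calls were lost, among them Cyp2d12 at PB 150 ppm.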
